A study of Mus musculus with 11 samples.

Results

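The 43 genes described here act in the cell cycle and in DNA replication. They were taken from a list of symbols, and all 43 were found among the 55228 symbols of the count table and the table of TPM values (transcript abundance per gene length). By role, 16 belong to DNA replication, 9 are E2f1 and the cyclins, and 18 act in mitosis. The list was drawn up with earlier results of these data known, so no test over the list as a whole is given.

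RNA was sequenced from mouse embryonic stem (ES) cells of the EN52.9.1 (CTCF-AID) line, in which the DNA-binding protein CTCF carries a degron and is destroyed when the auxin analog indole-3-acetic acid (IAA) is added. The cells grew in serum medium with leukemia inhibitory factor, and every group shares this line. EV cells without auxin (EV untreated, 3 libraries) carry the label wild-type. EV cells with 500 µM auxin (EV auxin, 2 libraries) were depleted of CTCF; another library of this group was not analysed here. Auxin-treated cells with FL CTCF put back gave 3 libraries (FL auxin), and auxin-treated cells with the CTCF mutant H373R put back, titled ZF4, gave 3 libraries (H373R auxin). The time in auxin, what EV and FL stand for, the number of clones behind each group and the promoter of the re-expressed CTCF are not given in the sources used here. The labels do not say whether replicates were separate cultures, so the p-values measure the spread between libraries, which may be technical.

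A cell that divides copies its DNA once and then shares it between 2 daughters. Before S phase, Cdc6 and Cdt1 load the ring-shaped MCM helicase (Mcm2 to Mcm7) onto origins. Cdc45 and the GINS complex (Gins1, Gins2) switch it on with the help of Mcm10. Pcna clamps the polymerases to the template, and Rrm1, Rrm2 and Tyms make the building blocks of DNA. Cyclins D and E drive the entry into S phase together with the transcription factor E2F1, and cyclins A and B drive S phase and mitosis. In many cell types genes of replication are controlled through E2F sites, and genes of mitosis through a CHR element, which is often paired with CCAAT boxes. Mouse ES cells are known for a short G1 phase, with a large share of cells in S phase.

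Total counts were 13465241 to 29902246 per library, and all 43 genes were among the 16420 genes with enough counts to be tested. Summed levels of 8 ES cell markers were 5078 to 5378 CPM (counts scaled to library size) in EV untreated and 4787 to 4963 in EV auxin. They were 4987 to 5047 CPM in FL auxin and 4762 to 4850 in H373R auxin, and none of the 8 was at 0. Every auxin-treated library thus lay below every untreated one in this sum, and the part of this in the results below was not tested. RNA of Ctcf itself was measured at 294 to 364 CPM in all libraries, and it is no measure of the degraded protein. Markers of primitive endoderm (6 genes, none at 0) summed to 26.2 to 29.0 CPM in EV untreated, 28.2 to 30.01 in EV auxin, 95.7 to 105 in FL auxin and 58.7 to 65.0 in H373R auxin. All 6 rose in FL and in H373R against EV auxin, and the part of such cells in the results below was not tested. Of the trophoblast markers (5 genes, none at 0) the sum was 19.6 to 23.4 CPM in EV untreated, 21.1 to 22.1 in EV auxin, 31.4 to 37.8 in FL auxin and 28.4 to 30.8 in H373R auxin. Fibroblast feeder markers (5 genes) summed to 1144 to 1180, 1280 to 1299, 1427 to 1464 and 1350 to 1610 CPM in the same order. Most of that sum was Fn1, the fibronectin gene, and Postn had 4 counts over all libraries. The part of these markers was not tested either. EV untreated replicate 1 stood apart from its group: its deviations from the group mean correlated with the GC content of genes (r = 0.56 across 16242 genes, which are not independent replicates). Other libraries showed such a link too. The r was -0.38 and -0.32 in EV untreated replicates 2 and 3, 0.325 in FL auxin replicate 1 and -0.225 in FL auxin replicate 2. Deviations within a group sum to 0, so these values are not independent of each other. Counts of called members are given with and without EV untreated replicate 1, and the members whose call it changes are named. These are bulk libraries, so a smaller share of cells in a phase and less RNA per cell cannot be told apart.

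All 43 genes were expressed, though Ccnd2 lay below the median over all tested genes in EV untreated cells. In EV untreated cells the median level was 277 TPM over the replication genes, 128 over E2f1 and the cyclins and 185 over the mitotic genes, against 15.46 over all tested genes. TPM divides by gene length, so levels of different genes can be set side by side. Among replication genes the mean level ran from 36.2 ± 3.2 TPM (SD, n = 3) for Gins2 to 925 ± 3.5 for Mcm3. Cyclins ran from 9.90 ± 0.69 TPM (SD, n = 3) for Ccnd2, a D-type cyclin, to 371 ± 21.1 for Ccnb2, a B-type cyclin. Mitotic genes ran from 91.4 ± 10.5 TPM (SD, n = 3) for Cenpe, a kinetochore motor, to 669 ± 70.2 for Top2a, the enzyme that untangles DNA. The members lie on 17 chromosomes.

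**Figure D1:**
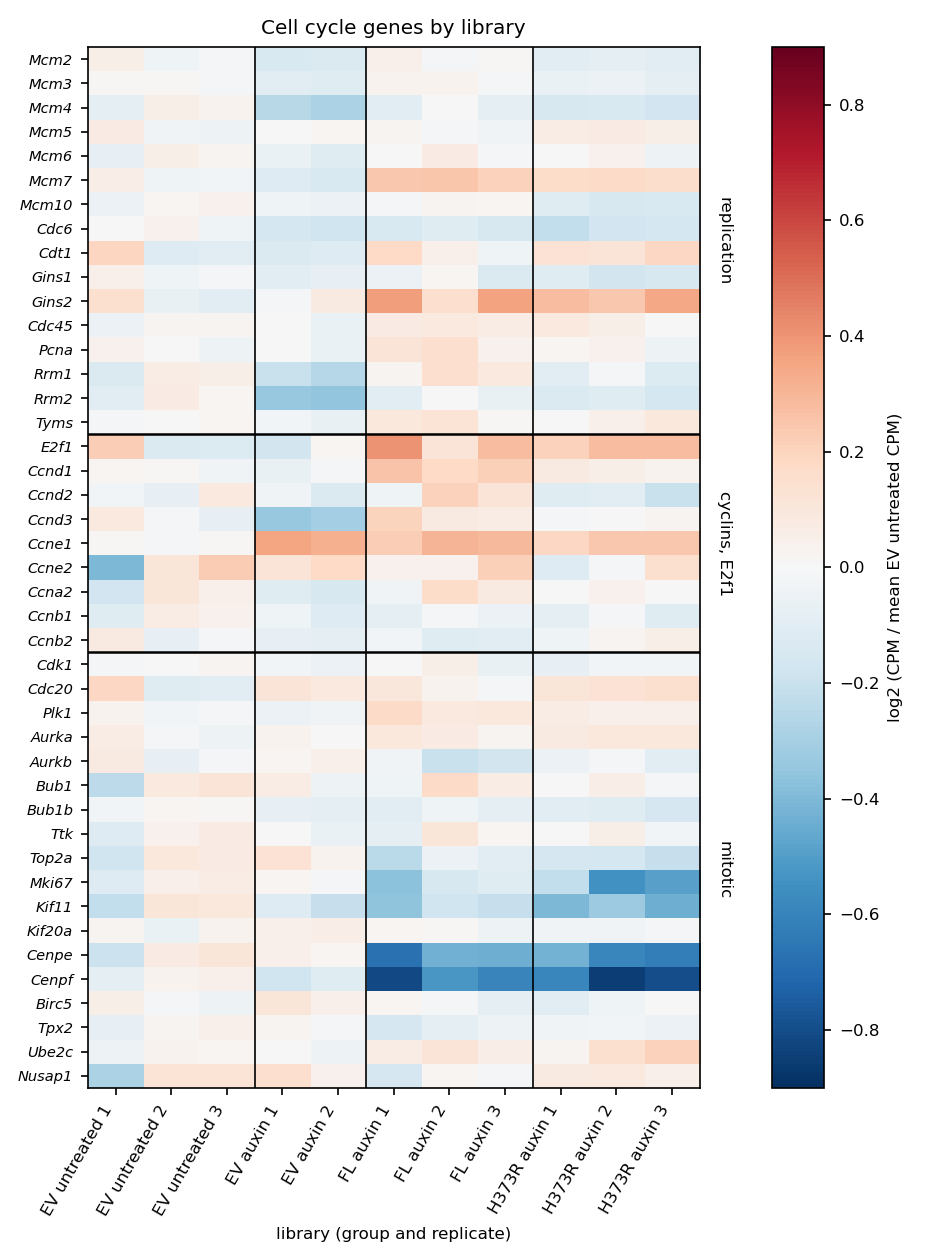
Each row is 1 of the 43 genes, ordered by role, and each column 1 of the 11 libraries. Colour shows log2 CPM minus the mean of the 3 EV untreated libraries. Several replication genes are lower in both EV auxin libraries, and Cenpe and Cenpf stand out as low in all 6 libraries with CTCF put back.

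Promoters were read to see whether the roles share sequence elements. RefSeq windows of 300 bases (250 before to 50 after the start site, build GRCm38.p6) were given for 33 of the 43 genes. The E2F motifs TTTCCCGC or TTTGGCGC, on either strand, were in 6 of 13 replication promoters (46.2%) and in none of 5 promoters of the cyclins and E2f1 or of 15 mitotic promoters. Among 26994 genes with such a window the share was 1.80%. The CHR motifs TTTGAA or TTTAAA were in 13 of 15 mitotic promoters (86.7%), 4 of 13 replication promoters (30.8%) and 3 of 5 of the cyclins and E2f1, against 30.6% of all genes. CCAAT was in 13 of 15 mitotic promoters and 10 of 13 replication promoters (76.9%), against 41.0% of all genes. A G-quadruplex pattern (4 runs of 3 G with spacers of 1 to 7 bases, on either strand) was counted because the study's title names CTCF as a protein that binds such structures. It was in 4 of 13 replication promoters, 4 of 5 of the cyclins and E2f1 and 3 of 15 mitotic promoters, against 20.4% of all genes. A motif match describes letters only, and a missing match says nothing of the factor.

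4 promoters are shown, 5′ to 3′ on the strand of the gene. They stand for called members of each role: Rrm2 and Mcm7 for replication, Ccne1 for the cyclins and Cenpf for mitosis. Mcm7 and Cenpf were chosen for print after their values were seen. Capitals mark the E2F motif, CHR motifs and CCAAT on either strand, so that CCAAT on the other strand reads ATTGG and TTTCCCGC reads GCGGGAAA. Rrm2 lies at chr12:24708004-24708303 (plus strand), Mcm7 at chr5:138171834-138172133 (minus strand), Ccne1 at chr7:38107441-38107740 (minus strand) and Cenpf at chr1:189688037-189688336 (minus strand).
Rrm2: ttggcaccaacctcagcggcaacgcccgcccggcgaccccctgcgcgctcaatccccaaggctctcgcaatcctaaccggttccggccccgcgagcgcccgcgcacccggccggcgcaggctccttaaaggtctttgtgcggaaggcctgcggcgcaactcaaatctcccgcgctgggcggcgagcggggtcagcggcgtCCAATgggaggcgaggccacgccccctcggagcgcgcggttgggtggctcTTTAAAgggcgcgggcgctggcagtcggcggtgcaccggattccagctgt
Mcm7: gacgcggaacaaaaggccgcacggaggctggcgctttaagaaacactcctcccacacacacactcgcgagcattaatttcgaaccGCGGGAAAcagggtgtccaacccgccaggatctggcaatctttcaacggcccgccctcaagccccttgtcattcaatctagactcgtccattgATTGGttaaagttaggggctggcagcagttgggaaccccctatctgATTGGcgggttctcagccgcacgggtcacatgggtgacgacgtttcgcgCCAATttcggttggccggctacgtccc
Ccne1: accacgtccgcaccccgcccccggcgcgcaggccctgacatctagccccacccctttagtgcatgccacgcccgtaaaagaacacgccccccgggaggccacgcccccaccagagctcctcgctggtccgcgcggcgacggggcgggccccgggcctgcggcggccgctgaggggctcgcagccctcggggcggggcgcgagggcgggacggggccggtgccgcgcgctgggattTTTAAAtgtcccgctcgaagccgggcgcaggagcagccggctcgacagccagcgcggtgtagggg
Cenpf: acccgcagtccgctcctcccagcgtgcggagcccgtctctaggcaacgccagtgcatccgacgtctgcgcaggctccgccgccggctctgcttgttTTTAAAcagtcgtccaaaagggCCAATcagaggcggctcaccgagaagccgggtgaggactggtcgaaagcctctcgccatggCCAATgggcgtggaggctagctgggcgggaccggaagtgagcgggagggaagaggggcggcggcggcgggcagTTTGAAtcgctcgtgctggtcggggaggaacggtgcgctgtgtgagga
Mcm7, the one E2F match of the 4, also has 3 CCAAT boxes. For a gene with several windows, a motif in any of them was counted, and the most 5′ window is shown. The other Mcm7 window (chr5:138171217-138171516) held CCAAT but no E2F motif. The Cenpf window holds 2 CHR motifs and 2 CCAAT boxes, the combination common to the mitotic list, while Ccne1 holds 1 CHR motif and no CCAAT.

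The first comparison asks how these genes differed in EV cells after auxin, when CTCF is lost. No auxin-treated cells without the degron were used here, so auxin itself and the loss of CTCF cannot be told apart. After auxin 5 of 16 replication genes fell modestly (Rrm1, Rrm2, Mcm2, Mcm4 and Cdc6), Ccne1 rose, Ccnd3 fell, and no mitotic gene passed the test. Of the 5, only Rrm2 and Mcm4 kept their calls when either EV auxin library was left out. A gene was called where edgeR's quasi-likelihood test gave a Benjamini-Hochberg adjusted p under 0.05 over all 16420 tested genes. By that rule 7 of 43 members were called, 1 higher and 6 lower, beside 20.7% of all tested genes (11.3% higher and 9.40% lower). Of the 16 replication genes 5 fell and none rose, and 14 of 16 had a log2 fold change below 0. Their median was -0.097, against 0.009 over all tested genes.

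Rrm2, the regulated subunit of ribonucleotide reductase, fell most. It measured 266, 300 and 288 CPM in EV untreated and 225 and 222 CPM in EV auxin. It was 266, 285 and 271 CPM in FL auxin and 260, 263 and 255 CPM in H373R auxin. The EV auxin libraries lie below all 9 others. The fall was 0.35 ± 0.056 on the log2 scale (SE; adjusted p = 3.55e-04), or 21.4%. Its partner subunit Rrm1 fell by 0.23 ± 0.064 (SE; adjusted p = 0.0178).

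Mcm4, a subunit of the MCM ring, measured 461, 510 and 501 CPM in EV untreated and 413 and 403 CPM in EV auxin. Levels were 459, 489 and 461 CPM in FL auxin and 444, 445 and 436 CPM in H373R auxin. Again both EV auxin libraries are the lowest of the 11. The fall after auxin was 0.27 ± 0.053 on the log2 scale (SE; adjusted p = 0.00202). The loader Cdc6 fell by 0.17 ± 0.049 (SE; adjusted p = 0.0222) and Mcm2 by 0.14 ± 0.045 (adjusted p = 0.0462). The 11 replication genes that were not called lay between -0.13 for Mcm7 and 0.032 for Gins2.

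Cyclins E1 and D3 moved in opposite directions. Ccne1, the cyclin E that starts S phase together with CDK2, measured 230, 225 and 230 CPM in EV untreated and 291 and 285 CPM in EV auxin. It was 266, 282 and 279 CPM in FL auxin and 260, 270 and 270 CPM in H373R auxin, so all 8 auxin-treated libraries lie above the untreated ones. The rise in EV auxin against EV untreated was 0.34 ± 0.046 on the log2 scale (SE, edgeR adjusted p = 9.45e-05), or 26.2%.

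Ccnd3, a D-type cyclin that links growth signals to the cycle, measured 318, 296 and 285 CPM in EV untreated and 237 and 243 CPM in EV auxin. It was 344, 316 and 314 CPM in FL auxin and 297, 301 and 304 CPM in H373R auxin. Only the EV auxin libraries are below all others. The fall was 0.32 ± 0.057 on the log2 scale (SE; adjusted p = 8.55e-04).

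None of the 18 mitotic genes was called by edgeR, beside 20.7% of all tested genes. None had an unadjusted edgeR p under 0.05, beside 32.7% of all tested genes. DESeq2 and limma on TPM called none of the 18 either. Their log2 fold changes ran from -0.16 (Kif11) to 0.10 (Cdc20), with a median of 0.008. With GC content and length trends removed from each library, 2 were called higher and 2 lower, and without EV untreated replicate 1, 1 higher and 2 lower.

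Calls in this comparison depended on single libraries. Over all roles 13 of 43 members were called without EV untreated replicate 1 (beside 33.3% of all genes), 4 without EV auxin replicate 1 and 4 without EV auxin replicate 2. With the trends of GC content and length removed the count was 15 (beside 30.4% of all genes). Rrm2, Mcm4, Ccnd3 and Ccne1 kept their calls in all 23 alternative settings, while Cdc6, Mcm2 and Rrm1 lost theirs without either EV auxin library. In all, Mcm2 lost its call in 15 settings, Rrm1 in 8 and Cdc6 in 6. With the trends removed the fall of Rrm1 was 0.14. The members called only when EV untreated replicate 1 was left out were Mcm6, Ccna2, Ccnb1, Kif11 and Cenpf, all lower, and Cdc20, higher. Kif11 was then -0.27 and Cenpf -0.20 (edgeR adjusted p = 5.63e-04 and 0.0387).

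**Figure D2:**
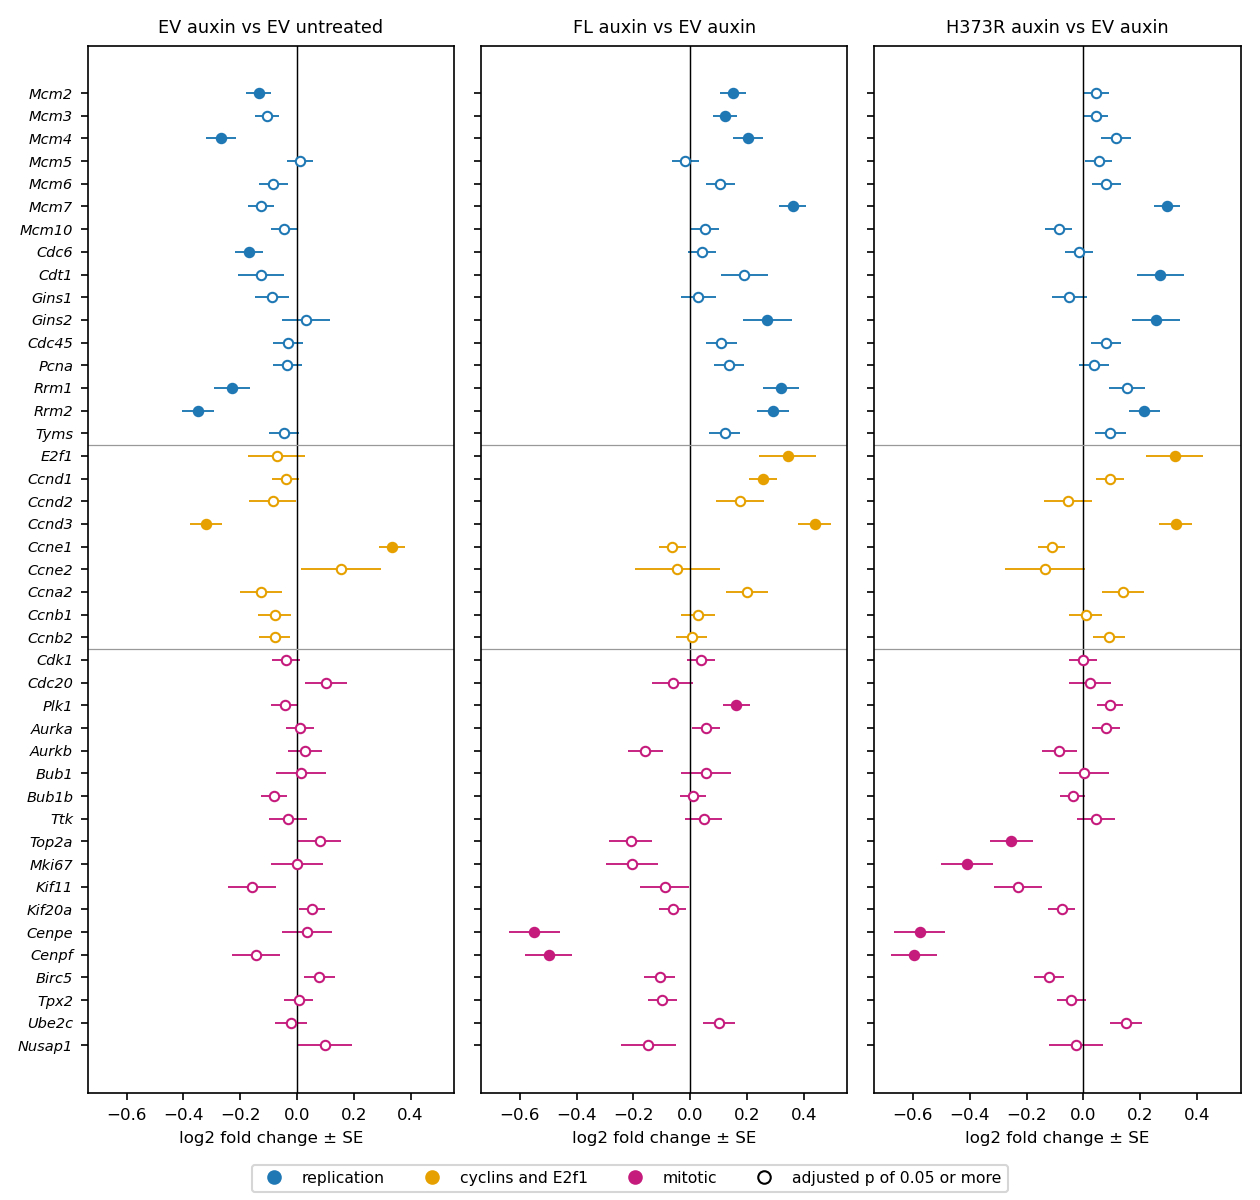
Log2 fold change ± SE of each of the 43 genes in 3 comparisons, with filled circles for an adjusted p under 0.05 (edgeR). Replication genes lie mostly left of 0 after auxin and right of 0 with FL CTCF, while Cenpe and Cenpf lie far left in both comparisons with CTCF put back.

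The next comparison asks what FL CTCF changed in auxin-treated cells. 7 of 16 replication genes, Ccnd1, Ccnd3 and E2f1 rose, and the centromere genes Cenpe and Cenpf fell further than any other member. Against EV auxin 13 of 43 members were called, 11 higher and 2 lower, beside 24.5% of all genes (11.1% higher and 13.4% lower). Among replication genes 7 of 16 rose and none fell (median 0.13). In the group of E2f1 and cyclins 3 of 9 rose (median 0.18), and among mitotic genes 1 of 18 rose and 2 fell (median -0.076). The median over all tested genes was -0.014.

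Mcm7, a subunit of the MCM ring, measured 446, 417 and 422 CPM in EV untreated and 394 and 390 CPM in EV auxin. It was 507, 510 and 494 CPM in FL auxin and 481, 482 and 477 CPM in H373R auxin, above every EV library. Against EV auxin the rise in FL was 0.36 ± 0.047 on the log2 scale (SE; adjusted p = 7.41e-05), or 28.5%. Exons of Mcm7 overlap those of Ap4m1 and Cops6 on the opposite strand and hold Mir25 and Mir93. Whether the counting used strand is not given in the sources used here, so reads of such neighbours could be included. The kit was directional.

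Rrm1 rose by 0.32 ± 0.064 (SE; adjusted p = 0.00218) and Rrm2 by 0.29 ± 0.056 (adjusted p = 0.00153), the per-library values of Rrm2 being those given above. The GINS subunit Gins2 rose by 0.27, Mcm4 by 0.20, Mcm2 by 0.15 and Mcm3 by 0.12 on the log2 scale. Gins2 shares exon sequence with Gse1 on the opposite strand. Mcm2, Mcm3, Mcm4 and Gins2 lost their calls without either EV auxin library and on TPM, where Mcm2 stood at 0.083 and Mcm3 at 0.058. The 9 replication genes that were not called lay between -0.017 (Mcm5) and 0.19 (Cdt1).

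In the cyclin group Ccnd3 rose by 0.44 ± 0.057 on the log2 scale (SE; adjusted p = 8.47e-05), or 35.4%. Its exons overlap those of Bysl on the opposite strand. Ccnd1, the cyclin D1 gene, measured 146, 146 and 142 CPM in EV untreated and 138 and 143 CPM in EV auxin. It was 173, 164 and 167 CPM in FL auxin and 153, 150 and 148 CPM in H373R auxin. All 3 FL libraries lie above the other 8. The rise in FL was 0.26 ± 0.049 (SE; adjusted p = 0.00147).

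E2f1, the transcription factor that switches on S-phase genes, measured 84.0, 65.6 and 66.0 CPM in EV untreated and 64.1 and 72.8 CPM in EV auxin. Levels were 94.96, 78.1 and 87.2 CPM in FL auxin and 83.0, 87.1 and 87.0 CPM in H373R auxin. EV untreated replicate 1 overlaps the groups with CTCF put back, and the EV auxin libraries do not. The rise in FL was 0.34 ± 0.10 (SE; adjusted p = 0.0246), and the call was lost without EV auxin replicate 1, FL auxin replicate 1 or FL auxin replicate 3. On TPM the call was lost too.

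The remaining cyclins were not called in FL against EV auxin. Ccne1 differed from its EV auxin level by -0.063 ± 0.047 (SE), and on TPM limma called it lower (-0.13, adjusted p = 0.0394). Ccnd2 measured 24.4, 23.5 and 26.4 CPM in EV untreated, 24.2 and 22.6 in EV auxin, 24.0, 28.6 and 26.9 in FL auxin and 22.9, 23.0 and 21.6 in H373R auxin, with overlap between EV and FL libraries. Ccne2, the second cyclin E gene, measured 13.5, 19.3 and 20.97 CPM in EV untreated, 19.4 and 20.3 in EV auxin, 18.4, 18.5 and 20.8 in FL auxin and 16.5, 17.8 and 19.8 in H373R auxin. Its spread in EV untreated was the widest of all members there (coefficient of variation 21.8%, against a median of 4.83%).

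Ccna2, the cyclin of S phase and G2, measured 319, 387 and 371 CPM in EV untreated, 333 and 325 in EV auxin, 351, 402 and 379 in FL auxin and 359, 369 and 358 in H373R auxin. The mitotic cyclin Ccnb1 measured 273, 309 and 303 CPM in EV untreated, 286 and 272 in EV auxin, 278, 293 and 284 in FL auxin and 277, 293 and 273 in H373R auxin. Ccnb2 measured 160, 144 and 149 CPM in EV untreated, 144 and 142 in EV auxin, 149, 141 and 142 in FL auxin and 147, 154 and 157 in H373R auxin. For Ccnb1 and Ccnb2 the EV untreated range covers or meets every other group, and none of these 3 genes was called in any of the 6 comparisons with all libraries. Leaving out EV untreated replicate 1 changed this for Ccna2 and Ccnb1. Ccna2 was then called lower after auxin (-0.22, edgeR adjusted p = 0.00277) and higher in FL and in H373R against EV auxin (0.21 and 0.14). Ccnb1 was then called lower after auxin (-0.14, edgeR adjusted p = 0.0295) and in H373R against EV untreated (-0.13). DESeq2 also called Ccna2 higher in FL against EV auxin (adjusted p = 0.0388).

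**Figure D3:**
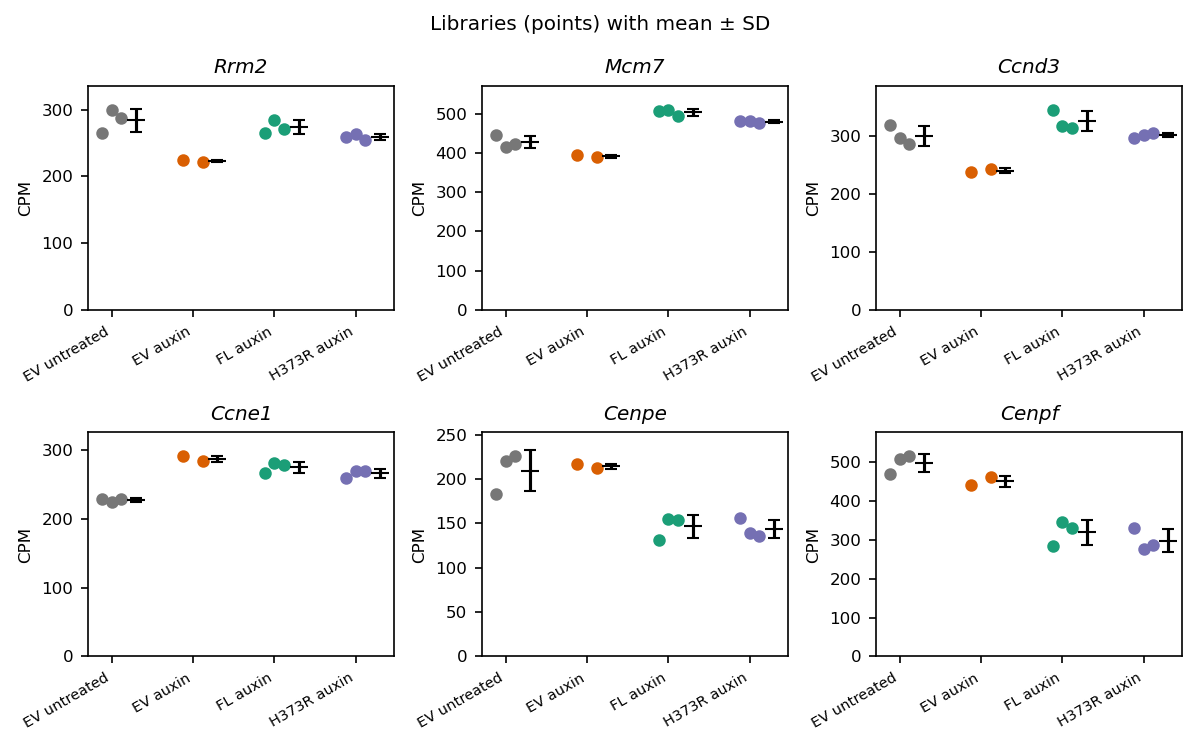
CPM of 6 members in each library (points, with the mean ± SD of the group beside them), on axes that start at 0. Rrm2 and Ccnd3 are lowest in EV auxin, Mcm7 is highest with CTCF put back, Ccne1 is higher in all auxin-treated groups, and Cenpe and Cenpf are lower in all 6 libraries with CTCF put back than in the 5 EV libraries.

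Cenpe, the kinetochore motor that brings chromosomes to the spindle equator, measured 183, 220 and 226 CPM in EV untreated and 217 and 212 CPM in EV auxin. It was 131, 155 and 154 CPM in FL auxin and 156, 140 and 136 CPM in H373R auxin. No library with CTCF put back reached an EV library. Against EV auxin the fall in FL was 0.55 ± 0.090 on the log2 scale (SE; adjusted p = 5.03e-04), or 31.6%.

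Cenpf, a large protein of the kinetochore and nuclear envelope, measured 471, 510 and 515 CPM in EV untreated and 441 and 462 CPM in EV auxin. It was 284, 346 and 330 CPM in FL auxin and 332, 278 and 287 CPM in H373R auxin, again without overlap with the EV libraries. The fall in FL was 0.50 ± 0.083 (SE; adjusted p = 5.63e-04). Plk1, a kinase of mitotic entry, rose by 0.16 ± 0.047 (SE; adjusted p = 0.0204) and lost its call without EV auxin replicate 1, EV auxin replicate 2 or FL auxin replicate 1. The Plk1 call was also lost on TPM, where the rise was 0.096. The other 15 mitotic genes lay between -0.21 (Top2a) and 0.10 (Ube2c).

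Beside the GC-linked deviations of libraries, gene length moved with these falls. Cenpf (15433 exon bases, GC 43.3%) and Cenpe (8620 bases, GC 42.95%) are long and poor in GC. The 2497 tested genes above 8000 bases had a median log2 fold change of -0.093 in FL and -0.13 in H373R against EV auxin. Among the 1251 of them with at most 47% GC, 100 in FL and 76 in H373R fell as far as Cenpf. With the trends of GC content and length removed from each library, Cenpf still fell by 0.36 in FL and 0.39 in H373R, and Cenpe by 0.48 and 0.44 (edgeR adjusted p from 6.48e-07 to 1.65e-05). The part of length and GC content in the falls was not tested beyond that.

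**Figure D4:**
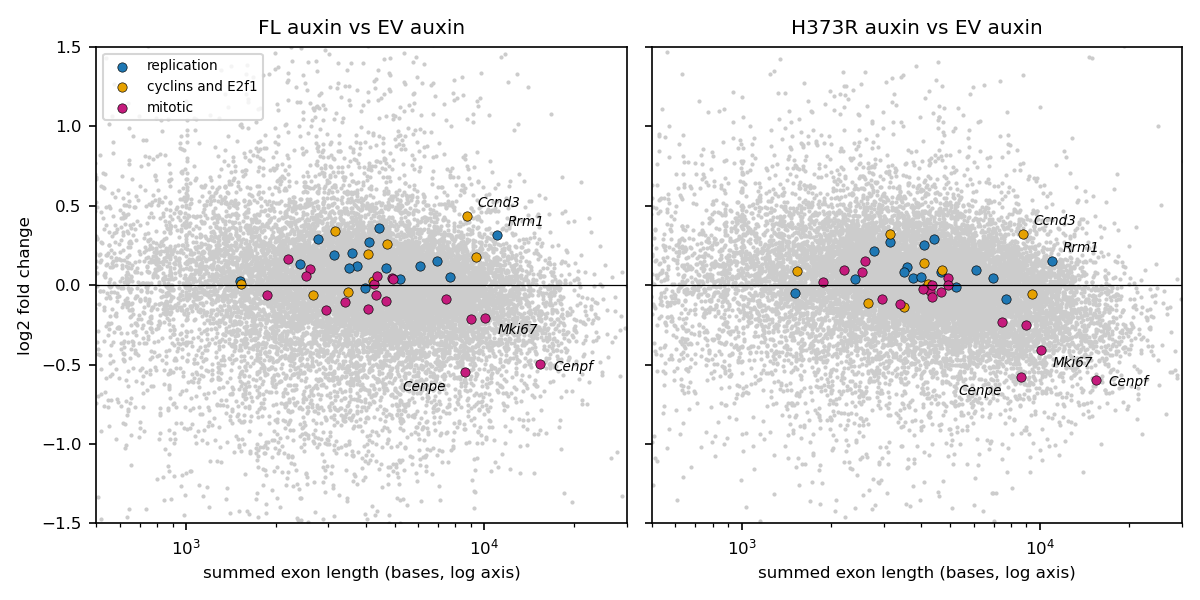
Log2 fold change against EV auxin for each tested gene (grey, n = 16242 with a known length, of which 562 lie outside the drawn range in a panel) and for the 43 members (coloured by role), over summed exon length on a log axis. Cenpe and Cenpf, called lower in both panels, are among the long genes. So is Mki67, called lower in H373R but not in FL with all libraries. Ccnd3 and Rrm1, also long, lie above 0.

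The split between rises and falls in FL depended on the scale. On TPM, which carries no TMM scaling, limma called 5 members higher and 7 lower against EV auxin (beside 6.06% and 15.5% of all genes), where edgeR called 11 and 2. Among replication genes 3 were higher and none lower on TPM, and among mitotic genes 6 were lower and none higher. Those 6 were Aurkb, Top2a, Cenpe, Cenpf, Birc5 and Tpx2. All tested genes together had shifted by -0.060 on that scale. Mcm7, Rrm1, Rrm2, Ccnd1, Ccnd3, Cenpe and Cenpf kept their direction and their call on TPM. The edgeR count of 13 became 23 without EV untreated replicate 1 (17 higher and 6 lower, beside 35.5% of all genes), 7 without EV auxin replicate 1, 8 without EV auxin replicate 2 and 23 with GC content and length trends removed (19 higher and 4 lower, beside 35.8% of all genes). Leaving out EV untreated replicate 1 added Mcm6, Cdt1, Cdc45, Pcna, Tyms and Ccna2 as higher and Aurkb, Top2a, Mki67 and Nusap1 as lower.

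The third comparison asks the same of the H373R mutant. It is made against the same 2 EV auxin libraries, so its values are not independent of those for FL. 10 of 43 members were called, 6 higher and 4 lower, beside 21.7% of all genes (10% higher and 11.7% lower). Replication genes rose in 4 of 16 cases and fell in none (median 0.081), E2f1 and the cyclins rose in 2 of 9 (median 0.091), and mitotic genes fell in 4 of 18 and rose in none (median -0.040). The median over all tested genes was 0.

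Mcm7 rose by 0.29 ± 0.046 on the log2 scale (SE; adjusted p = 5.63e-04), and Ccnd3 by 0.33 ± 0.057 (adjusted p = 0.00109). Both kept their calls in all 23 alternative settings. The loader Cdt1 rose by 0.27, Gins2 by 0.26, Rrm2 by 0.22 and E2f1 by 0.32 (Cdt1 by 0.14 and E2f1 by 0.185 with GC content and length trends removed), and these 4 calls were lost without either EV auxin library. Cdt1, Gins2 and E2f1 also lost theirs without H373R auxin replicate 1 or 3 and on TPM, and Gins2 and E2f1 without H373R auxin replicate 2. Ccne1 was 0.11 ± 0.047 lower than in EV auxin and was not called (adjusted p = 0.104). It was called lower on TPM (-0.15, limma adjusted p = 0.0276) and with GC content and length trends removed (-0.15, edgeR adjusted p = 0.0112).

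On the mitotic side Cenpf fell by 0.60 ± 0.082 (SE; adjusted p = 2.27e-04) and Cenpe by 0.58 ± 0.089 (adjusted p = 4.83e-04). Mki67, the proliferation marker Ki-67, fell by 0.41 ± 0.091 (SE; adjusted p = 0.00513). Top2a fell by 0.25 ± 0.075 (SE; adjusted p = 0.0243). Mki67 (10061 bases) and Top2a (9013 bases) are long as well, and with GC content and length trends removed they fell by 0.27 and 0.11. The Mki67 call was lost without EV auxin replicate 1, and the Top2a call without either EV auxin library or any H373R library. The 14 mitotic genes not called ran from -0.23 (Kif11) to 0.15 (Ube2c).

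On TPM, limma called 3 members higher and 6 lower in H373R against EV auxin (beside 5.95% and 10.8% of all genes), where edgeR called 6 and 4, and all genes had shifted by -0.034. Those called higher were Mcm7, Rrm2 and Ccnd3, and Rrm2 lost its call in limma without a filter. Those called lower were Ccne1, Top2a, Mki67, Cenpe, Cenpf and Birc5. The edgeR count of 10 became 15 without EV untreated replicate 1 (beside 33.0% of all genes), 4 without EV auxin replicate 1, 5 without EV auxin replicate 2, 6 without H373R auxin replicate 3 and 19 with GC content and length trends removed (beside 30.9%). Leaving out EV untreated replicate 1 added Mcm4, Rrm1, Ccna2 and Ube2c as higher and Kif11 as lower.

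FL and H373R were then set against each other directly. Only Ccnd1 was called among the 43, and it was lower in H373R by 0.16 ± 0.043 on the log2 scale (SE; adjusted p = 0.0362), beside 5.96% of all genes called (3.14% higher and 2.82% lower). Exons of Ccnd1 overlap those of LTO1 on the opposite strand, so the doubt about strand given for Mcm7 holds here too. The call was lost in 13 of 23 alternative settings, among them the removal of any FL or H373R library or of EV auxin replicate 1. No replication gene and no mitotic gene was called by edgeR. At an unadjusted edgeR p under 0.05, 4 replication genes, 3 of the cyclin group and 1 mitotic gene were lower in H373R and none higher. These are 18.6% of the 43 members, all lower. Of the 16420 tested genes 1534 were lower and 1841 higher by that rule, 20.6% in either direction. DESeq2 called Mcm10 and Ccnd1, both lower, and limma on TPM called none. In H373R 14 of 16 replication genes had a log2 fold change below 0, with a median of -0.073. The differences ran from -0.16 ± 0.057 (SE) for Rrm1 to 0.081 ± 0.073 for Cdt1. Cenpe differed by -0.028 ± 0.081 and Cenpf by -0.098 ± 0.075 (SE).

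EV untreated replicate 1 enters this comparison only through the shared filter, scaling and spread. When it was left out, 7 members were called between H373R and FL, all lower, beside 14.2% of all genes. Those added to Ccnd1 were Mcm2, Mcm10, Rrm1, Ccnd2, Mki67 and Kif11. With GC content and length trends removed 9 were called, 1 higher and 8 lower, beside 13.6%. A p that misses the threshold does not show that FL and H373R act alike on these genes.

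The groups with CTCF put back were also compared with EV untreated cells. No untreated FL or H373R library was used here, so auxin and the CTCF put back cannot be told apart in these differences. In FL 10 of 43 members were called, 6 higher and 4 lower, beside 36.9% of all genes (17.7% higher and 19.2% lower). The replication median was 0.021 (-0.020 on TPM), and Rrm2, at -0.055 ± 0.049 (SE), and Mcm4, at -0.062 ± 0.047, were not called. Mcm7 was 0.23 ± 0.041 above EV untreated (SE; adjusted p = 4.56e-04), and Ccne1 0.27 ± 0.042 above (adjusted p = 1.51e-04). Cenpf was 0.64 ± 0.075 below (SE; adjusted p = 1.24e-05) and Cenpe 0.51 ± 0.081 below (adjusted p = 1.82e-04). With GC content and length trends removed Cenpf was 0.38 below. The count was 19 without EV untreated replicate 1 (beside 47.2% of all genes), 6 without EV untreated replicate 2 and 18 with GC content and length trends removed (beside 44.8%). Leaving out replicate 1 added Cdt1, Pcna, Ccnd3 and Cdc20 as higher and Mcm4 (-0.11), Top2a, Mki67, Tpx2 and Nusap1 as lower. On TPM, limma called 4 higher and 7 lower (beside 12.4% and 19.0% of all genes).

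In H373R 16 of 43 members were called against EV untreated, 5 higher and 11 lower, beside 44.4% of all genes (22.3% higher and 22.1% lower). Cdc6 was 0.18 ± 0.043 lower (SE; adjusted p = 0.00294), Mcm4 0.15 lower and Rrm2 0.13 lower. Mcm4 lost its call without EV untreated replicate 2 or 3. Rrm2 lost its call in 11 of 23 alternative settings, among them without EV untreated replicate 2 or 3, EV auxin replicate 1, FL auxin replicate 3 or any H373R library. Ccne1 was 0.23 ± 0.042 higher (SE; adjusted p = 4.74e-04). Among mitotic genes Cenpf was 0.74 lower, Cenpe 0.54, Mki67 0.41 and Kif11, the spindle motor Eg5, 0.39 lower, and all 4 kept their calls in every alternative setting. The sizes were smaller with GC content and length trends removed, at 0.40, 0.33, 0.23 and 0.20 lower in that order, and Ccne1 was then 0.13 higher. The count was 8 without EV untreated replicate 2 or 3, 9 and 10 without H373R auxin replicates 2 and 3, 19 without EV untreated replicate 1 (beside 54.7% of all genes) and 19 with GC content and length trends removed (beside 49.6%). Leaving out EV untreated replicate 1 added Cdt1, Cdc20 and Aurka as higher and Rrm1 and Ccnb1 as lower, and Gins1 and Ube2c lost their calls.

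The medians of replication and mitotic genes differed most in the comparisons that include EV auxin. In those comparisons the medians of the other replication and other mitotic genes, given below, lay closer together. The median log2 fold change of the replication genes minus that of the mitotic genes was -0.11 after auxin, 0.21 in FL against EV auxin and 0.12 in H373R against EV auxin. It was -0.052 in H373R against FL, 0.059 in FL against EV untreated and 0.006 in H373R against EV untreated. Per library, the mean level of replication genes minus that of mitotic genes, relative to EV untreated, was 0.068, -0.023 and -0.046 in EV untreated and -0.13 and -0.10 in EV auxin. It was 0.19, 0.12 and 0.11 in FL and 0.085, 0.11 and 0.11 in H373R. The SD of this difference between libraries of a group was 0.039. EV auxin lies below and FL and H373R above the untreated range. Each value is a mean over a list, in which single large falls weigh more than in a median. Against EV untreated the mitotic median was only -0.038 in FL and -0.039 in H373R, while the lowest mitotic gene, Cenpf, stood at -0.64 and -0.74. The part of such genes in the means was not tested. Without EV untreated replicate 1 the value after auxin was -0.046.

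By list, the mean log2 level of replication genes relative to EV untreated was -0.10 and -0.12 in EV auxin, 0.052, 0.063 and 0.019 in FL and -0.011, -0.004 and -0.018 in H373R. Replication genes were thus lowest in EV auxin. Mitotic genes stood at 0.021 and -0.017 in EV auxin, -0.14, -0.054 and -0.092 in FL and -0.096, -0.11 and -0.13 in H373R. EV untreated replicate 1, at -0.061, falls within the FL range. E2f1 and the cyclins stood at -0.035 and -0.026 in EV auxin, 0.11, 0.11 and 0.13 in FL and 0.016, 0.063 and 0.055 in H373R.

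**Figure D5:**
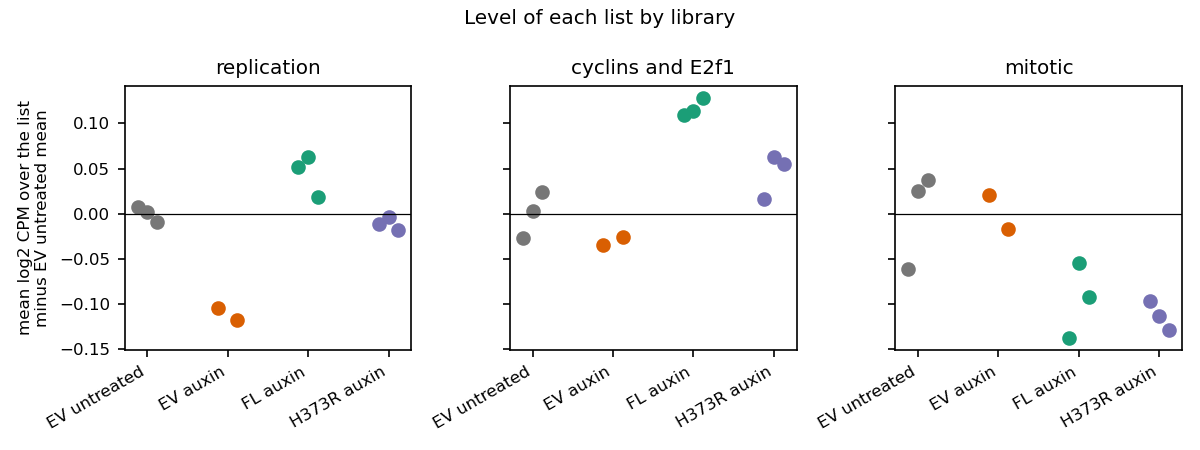
Mean log2 CPM of the genes of each role list in each library (points), minus the mean of the 3 EV untreated libraries. The replication list is lowest in the 2 EV auxin libraries, the cyclin list highest in the 3 FL libraries, and the mitotic list lowest in FL and H373R with EV untreated replicate 1 among them.

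Over the 6 comparisons 23 of 43 members (53.5%) were called at least once and 20 in none, beside 59.4% of all tested genes called at least once. Among replication genes Mcm5, Mcm6, Cdc45, Pcna and Tyms were called in none. Of the cyclin group Ccnd2, Ccne2, Ccna2, Ccnb1 and Ccnb2 were called in none. Among the mitotic genes 10 of 18 were called in none, including Cdk1, the kinase of mitotic entry, Cdc20, which activates the anaphase-promoting complex, and the Aurora kinases Aurka and Aurkb.

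Genes of the same pathways outside the 43 were read from lists of other replication genes (35), other mitotic genes (37) and cell cycle regulators (29), all tested. After auxin 2 of 35 other replication genes rose and 6 fell (22.9% called, beside 20.7% of all tested genes). Those that fell were Rfc3, Rfc4 and Rfc5 of the clamp loader, Rpa1 and Rpa3 of the single-strand binding protein, and Pola1. Rfc5 fell by 0.35 and Pola1, the catalytic subunit of the priming polymerase, by 0.45 on the log2 scale (edgeR adjusted p = 2.48e-04 and 4.35e-04). None of the 37 other mitotic genes was called. Of these genes 7 (18.9%) had an unadjusted edgeR p under 0.05, beside 32.7% of all tested genes. Of the 29 regulators 2 rose and 9 fell (37.9% called). After auxin the median log2 fold change was -0.088 over the other replication genes and -0.019 over the other mitotic genes.

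Cdkn1a, which encodes the CDK inhibitor p21, measured 122, 110 and 109 CPM in EV untreated and 67.4 and 64.7 CPM in EV auxin. It was 104, 95.7 and 95.9 CPM in FL auxin and 112, 109 and 116 CPM in H373R auxin. Both EV auxin libraries are far below the rest. The fall after auxin was 0.79 ± 0.065 on the log2 scale (SE; adjusted p = 4.18e-07), and against EV auxin Cdkn1a was higher by 0.58 in FL and 0.77 in H373R. Tfdp2, a dimer partner of E2F proteins, fell by 0.40 after auxin (SE 0.056; adjusted p = 1.06e-04).

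Against EV auxin, 4 other replication genes rose and 4 fell in FL (22.9% called), and 2 rose and 5 fell in H373R (20%). Of the other mitotic genes 4 rose and 5 fell in FL (24.3%), and 3 rose and 9 fell in H373R (32.4%). Of the regulators 6 rose and 1 fell in FL (24.1%), and 3 rose and 4 fell in H373R (24.1%). In FL these shares lie near the 24.5% of all tested genes called, and in H373R only the mitotic share is well above the 21.7% of all genes. The median log2 fold change of other replication genes was 0.044 in FL and -0.011 in H373R, and that of other mitotic genes -0.045 and -0.042, beside -0.014 and 0 over all tested genes.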

How the data were processed

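Strand-specific libraries were made from total RNA with a directional kit, per the labels' protocols. The authors deposited raw counts per gene symbol and TPM values. The submitters' processing notes name featureCounts, Subread 2.0.3 and DESeq2 with build mm10/GRCm38. The aligner, annotation and strand setting are not given in the sources used here. The deposited TPM values held the same reads as the counts (18171 genes checked).

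The main test was the quasi-likelihood F test of edgeR 4.0.16 (R 4.3.3), after TMM scaling and filterByExpr by group. One group-means model held all 11 libraries, so that the 2 EV auxin libraries share the spread of the other groups, and p-values were adjusted by Benjamini-Hochberg over 16420 genes. The common biological coefficient of variation was 0.0578. CPM are TMM-scaled, and log2 levels used a prior count of 2. Alternatives were scaling by RLE or upper quartile, no filter or at least 10 counts per library, DESeq2 1.42.0, a fit to only the 2 groups compared, a replicate block, a threshold of 0.01, limma 3.58.1 on log2(TPM + 1) or log2(TPM + 0.1) with and without a filter (TPM of at least 1 in 2 libraries), removal of GC content and length trends, and leaving out each library. Lengths, GC content and overlaps are from GENCODE M21 (GRCm38), with 98.9% of tested genes matched. The scripts were tested on simulated counts.

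Members and lists were chosen with earlier results of these data known. Values in every library are given for E2f1, every cyclin and, in the replication and mitotic lists, the 2 called genes with the smallest adjusted p in each of the first 4 comparisons. In the other pathway lists, the 2 called genes with the smallest adjusted p after auxin are named, and further genes were chosen after their values were seen. No column belonged to another sample.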

Additional observations from a re-analysis of the deposited data

Results flagged for a closer look

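Ccnd1 differed between the 2 groups with CTCF put back when they were tested against each other: its log2 fold change in H373R auxin minus FL auxin was -0.16 (edgeR adjusted p = 0.0362), with all 3 H373R libraries (148 to 153 CPM) below all 3 FL libraries (164 to 173 CPM). The adjusted p ranged from 4.63e-04 to 0.121 over the 23 alternatives.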

How the results depend on the processing

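Of the counts of members called, in the order of the comparisons (EV auxin against EV untreated, FL and H373R against EV auxin, H373R against FL, FL and H373R against EV untreated; 7, 13, 10, 1, 10 and 16 as reported), the following moved by more than 1.5 times. An adjusted p under 0.01 gave 4, 7, 5, 0, 6 and 8, as a stricter threshold must lower them. Only the libraries compared gave 4 in the first, 17 in the third, 4 in the fourth, 6 in the fifth and 10 in the sixth. Removal of GC content and length trends gave 15, 23, 19, 9 and 18 in the first 5. DESeq2 gave 2 and each limma fit on TPM 0 for H373R against FL, and limma without a filter gave 6 for H373R against EV auxin. Apart from the threshold, the cause was not tested. Leaving out 1 library gave 4 to 13, 7 to 23, 4 to 15, 0 to 7, 6 to 19 and 8 to 19. The replication median minus the mitotic median stayed within the spread between libraries under the other settings, and leaving out 1 library gave -0.13 to -0.046, 0.20 to 0.21, 0.11 to 0.13, -0.058 to -0.032, 0.049 to 0.093 and -0.012 to 0.027. With trends removed, H373R against EV untreated reversed for E2f1 (-0.006), Top2a (0.040) and Ube2c (-0.057). Over the 57 called gene results, 1057 of 1311 recomputed values kept direction and call, 251 kept only direction and 3 reversed. Same-numbered libraries did not all deviate together: r ran from -0.087 to 0.28 over 15 pairs, with 3 above 0.1, against -0.20 to 0.13 over 30 pairs of different numbers, with 1 above 0.1. Between EV untreated and FL every library correlated best with its own number (0.28, 0.12 and 0.096), a hint from the data and not from the design. Deviations within a group sum to 0, so these pairs are not independent. The same deviations also correlated with GC content, by replicate number with r of 0.56, -0.38 and -0.32 in EV untreated and 0.325, -0.225 and -0.085 in FL. The replicate block gave 6, 15, 10, 0, 10 and 15 members called (Mcm2 after auxin and Gins2 in H373R against EV auxin are among the calls it lost), and differences of -0.13, 0.23, 0.14, -0.054, 0.057 and 0.006. A lone EV auxin library is assumed to vary like the other groups.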
